A study of Mus musculus with 10 samples.

Results

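The 53 genes described here encode the part of the cardiac extracellular matrix that is not collagen: glycoproteins, proteoglycans, elastic fibre proteins and the enzymes and binding proteins that crosslink and assemble fibres. They were taken by name from a list of matrix genes and kept when their TPM, an abundance corrected for transcript length, was above 0 in at least 9 of the 10 mice. All 53 were found among the 29564 genes of the tables, all passed that condition, and all were among the 13305 protein-coding, non-mitochondrial genes tested. By role they fall into 10 genes of the basement membrane, 7 small leucine-rich proteoglycans, 12 of the elastic fibre, 17 adhesive and matricellular genes and 7 crosslinkers and assembly factors.

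Bulk polyadenylated RNA of the left ventricle was sequenced in 5 control mice, numbered TT-583 through TT-587, and 5 HFD+mTAC mice, numbered TT-588 through TT-592, all wild-type male C57BL/6J. From 11 weeks of age, HFD+mTAC mice carried a moderate constriction of the transverse aorta (mTAC), which loads the left ventricle with pressure, and ate a high-fat diet (HFD) with 60% of kilocalories as fat. Control mice had neither and ate chow with 10% of kilocalories as fat. Induction lasted 16 weeks. The treatment label gives vehicle for all 10 mice. The treatment protocol in the labels describes it, at 10 mL/kg daily over 6 to 9 weeks, for the HFD+mTAC mice only. Whether control mice received it could not be settled from the labels. Diet and constriction were applied together, so that what belongs to each cannot be told apart in these 2 groups. The question was which of the matrix genes differed between the groups, in mice made to mirror HFpEF, a heart failure in which ejection is preserved and the ventricle is stiff. Between libraries of a group, chi-square per degree of freedom over the counts ran from 12.9 to 53.8. Control mice TT-583 and TT-584 were 14.5 apart and TT-585 and TT-586 14.7, with 24.2 to 37.5 between these pairs. Control mouse TT-587 was 25.1 to 46.6 from the other control mice. HFD+mTAC mice TT-590 and TT-591, 15.8 from each other, were 21.3 to 53.8 from the other 3.

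The basement membrane is a thin sheet around cardiomyocytes and under endothelium, in which laminins form a network that nidogens and perlecan join to collagen IV. Small leucine-rich proteoglycans such as decorin bind collagen fibrils and govern their spacing, fibrillins and fibulins carry elastin in elastic fibres, and lysyl oxidases crosslink collagen and elastin. Matricellular proteins such as periostin and the thrombospondins signal to cells rather than bear load, and in the heart most of these genes are expressed by fibroblasts, endothelium and mural cells.

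No gene of the 53 passed the threshold of an adjusted p under 0.05 (edgeR's quasi-likelihood test over all genes tested), where 8 of 13305 genes did (0.0601%). At an unadjusted p under 0.05 there were 8 members, or 15.1%, beside 8.26% of all genes. Of these, 6 were higher in HFD+mTAC mice (Hspg2, Aebp1, Prelp, Agrn, Lamb1 and Lamc1), where the share over all genes was 4.54%, and 2 were lower (Fbn2 and Fmod), where it was 3.72%. DESeq2 called 1 member, Hspg2, and 120 genes of all (0.902%), and 9 members had an unadjusted p under 0.05 in it, beside 8.84% of all genes. limma on log2(TPM + 1) called 0 members and 1 gene of all (0.00752%), with 7 members at an unadjusted p under 0.05, beside 6.58% of all genes. Without mouse TT-587, TT-590 or TT-591, edgeR gave 8, 6 and 7 members at an unadjusted p under 0.05, beside 1209, 1022 and 1155 of all genes. In CPM, the counts scaled to library size, all 5 HFD+mTAC values exceeded all 5 control values in 3 members, Hspg2, Aebp1 and Lamb1, beside 1.07% of all genes, and none of the 3 was without overlap once effective length entered (as an offset or in TPM). No member had all 5 HFD+mTAC values under the control values, beside 0.887% of all genes. The median log2 fold change of the 53 was 0.05, that of all genes tested 0.00. Of the members 30 were above 0 (56.6%, beside 50.4% of all genes) and 23 below.

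Upstream sequence of Hspg2, Aebp1 and Lamb1 is given because these are the members whose groups did not overlap. The sequences are those of RefSeq (GRCm38.p6), which had an entry for 34 of the 53 members in 42 windows, and each ends before the annotated gene begins. Capitals mark the GC box, GGGCGG or its reverse complement CCGCCC, the letters that Sp1-type factors are known to bind.
Hspg2 (chr4:137468553-137468768, + strand): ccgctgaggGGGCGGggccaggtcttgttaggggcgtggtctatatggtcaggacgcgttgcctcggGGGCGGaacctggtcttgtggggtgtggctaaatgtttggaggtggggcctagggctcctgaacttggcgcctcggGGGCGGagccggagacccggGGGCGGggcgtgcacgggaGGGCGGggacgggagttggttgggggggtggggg
Aebp1 (chr11:5861616-5861865, + strand): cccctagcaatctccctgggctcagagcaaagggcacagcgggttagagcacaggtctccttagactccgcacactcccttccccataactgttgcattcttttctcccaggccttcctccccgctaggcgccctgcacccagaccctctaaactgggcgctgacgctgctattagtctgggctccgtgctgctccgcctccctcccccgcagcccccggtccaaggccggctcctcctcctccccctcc
Lamb1 (chr12:31265043-31265233, + strand): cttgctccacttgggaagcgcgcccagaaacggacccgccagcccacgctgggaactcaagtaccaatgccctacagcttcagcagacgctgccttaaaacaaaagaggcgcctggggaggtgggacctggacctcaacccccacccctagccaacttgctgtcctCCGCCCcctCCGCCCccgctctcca
The Hspg2 stretch of 216 bases held 5 GC boxes and the Lamb1 stretch of 191 bases held 2, whereas the 250 bases of Aebp1 held 0. Over the 250 bases before each RefSeq start, a GC box on either strand stood in 24 of 42 member windows (57.1%) and in 32.7% of the 32851 windows of all genes. TATAAA, the TATA box, stood in 16.7% of member windows and 12.4% of all. TGANTCA, the AP-1 site, stood in 7.14% and 6.75%. These are matches of letters only, on both strands, and no motif holds another. The shares were not adjusted for base composition, on which matches to GGGCGG depend. The Hspg2, Aebp1 and Lamb1 stretches were 70.8, 64.4 and 63.9% G and C, beside a median of 52.4% over all windows.

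In the basement membrane, 9 of 10 genes had a log2 fold change above 0, beside 50.4% of all genes, with a median of 0.18. Among these 9, Nid1, Lama4 and Lama5 lay within 1 standard error of 0, and Nid1 was -0.0047 with DESeq2. Of the 10, 4 had an unadjusted p under 0.05 (edgeR), beside 8.26% of all genes. With effective length as an offset, or with limma on log2(TPM + 1), the 4 became 0 of 10. Hspg2 (GRCm38, chr4:137468769-137570630) encodes perlecan, the large heparan sulfate proteoglycan that tethers laminin to collagen IV and holds growth factors. It was 716, 723, 696, 665 and 649 CPM in the control mice and 829, 824, 890.1, 927 and 769.8 CPM in the HFD+mTAC mice, in the order TT-583 to TT-592. The lowest HFD+mTAC mouse, TT-592, lay above the highest control mouse, TT-584. The group levels were 690.0 ± 32.2 CPM (SD, n = 5) in control and 848 ± 61.5 CPM (SD, n = 5) in HFD+mTAC mice, which gave a log2 difference of 0.30 ± 0.08 (SE, edgeR adjusted p = 0.262). DESeq2 gave an adjusted p of 0.0146 for the same gene, and with effective length as an offset the log2 difference was 0.20 (adjusted p = 0.789 from edgeR).

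Laminins are trimers of an alpha, a beta and a gamma chain. Lamb1, the beta-1 chain (chr12:31265234-31329644), was 161, 163, 158, 142 and 139 CPM in the control mice and 183, 187, 167, 163 and 169 CPM in the HFD+mTAC mice. The groups did not overlap, although mouse TT-591 stood only just above control mouse TT-584. Its log2 difference of 0.19 ± 0.08 (SE, edgeR adjusted p = 0.532) was the smallest change among the 3 members without overlap. It was 0.05 with the length offset and 0.09 with limma on log2(TPM + 1), and the groups overlapped with DESeq2's size factors, the offset or TPM.
Lamc1, the gamma-1 chain shared by most laminins of the heart, was 268, 273, 281, 291 and 235 CPM in the control mice and 330.4, 308, 311, 294 and 281 CPM in the HFD+mTAC mice. HFD+mTAC mouse TT-592 lay between control mice TT-585 and TT-586, so that the groups overlapped at their edges, with a log2 difference of 0.18 ± 0.08 (SE, edgeR adjusted p = 0.597).
Lamb2, the beta-2 chain and the most abundant laminin gene on a per-length scale, was 419.5, 435, 510.2, 418 and 355 CPM in the control mice and 430.3, 408, 378, 387 and 439 CPM in the HFD+mTAC mice. The groups overlapped throughout, control mice held the highest and the lowest level, and the log2 difference of -0.07 ± 0.10 (SE, edgeR adjusted p = 0.917) had no stable sign among the alternatives.

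The 3 alpha chains were above 0 on counts, and 2 of them were below 0 with the length offset. Lama4, the endothelial chain, had a log2 fold change of 0.02 on counts and -0.02 with the offset, and Lama5 had 0.06 and -0.07. Lama2, the chain of the cardiomyocyte basement membrane, had 0.28 with a standard error of 0.23, and its level was highest in HFD+mTAC mice TT-588 and TT-589 at 106 and 89.5 CPM and in control mouse TT-585 at 75.7 CPM. The other 7 mice lay between 43.8 and 55.7 CPM. Its spread thus lay within the groups, and the other HFD+mTAC mice were at control level.
Agrn, agrin, which binds laminin and dystroglycan, was 93.7, 85.7, 83.7, 85.3 and 109 CPM in the control mice and 102, 90.2, 112, 147 and 123 CPM in the HFD+mTAC mice. Control mouse TT-587 stood above HFD+mTAC mice TT-588 and TT-589, and the log2 difference of 0.33 ± 0.13 (SE, edgeR adjusted p = 0.498) was the largest of the basement membrane genes on counts, with 0.18 under the offset.
The nidogens link laminin to collagen IV. Nid2 was 35.3, 34.9, 34.9, 43.9 and 26.4 CPM in the control mice and 44.6, 39.4, 43.0, 41.7 and 37.6 CPM in the HFD+mTAC mice. Control mouse TT-586 lay among the HFD+mTAC mice and the other 4 control mice below them all, with a log2 difference of 0.23 ± 0.12 (SE, edgeR adjusted p = 0.644), whereas Nid1 had 253 and 253 CPM in the group means.
Summed over the 10 genes, basement membrane counts were 2106 to 2384 CPM in control and 2457 to 2653 CPM in HFD+mTAC mice, 2 ranges that did not overlap. Without Hspg2, an alternative chosen after seeing the data, the sum was 1457 to 1688 CPM in control and 1623 to 1746 CPM in HFD+mTAC mice, and the ranges overlapped. Corrected for effective length, the same sum was 638 to 705 TPM and 672 to 785 TPM, and the ranges did overlap. Cardiomyocyte markers stood beside this at 47212 to 53285 CPM in control and 40977 to 48580.1 CPM in HFD+mTAC mice in sum, with 6 of 7 lower in HFD+mTAC mice and 0 of 7 called. Their part in the basement membrane values was not tested. In bulk tissue, fewer cells of a type and less RNA per cell cannot be told apart.

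**Figure D1:**
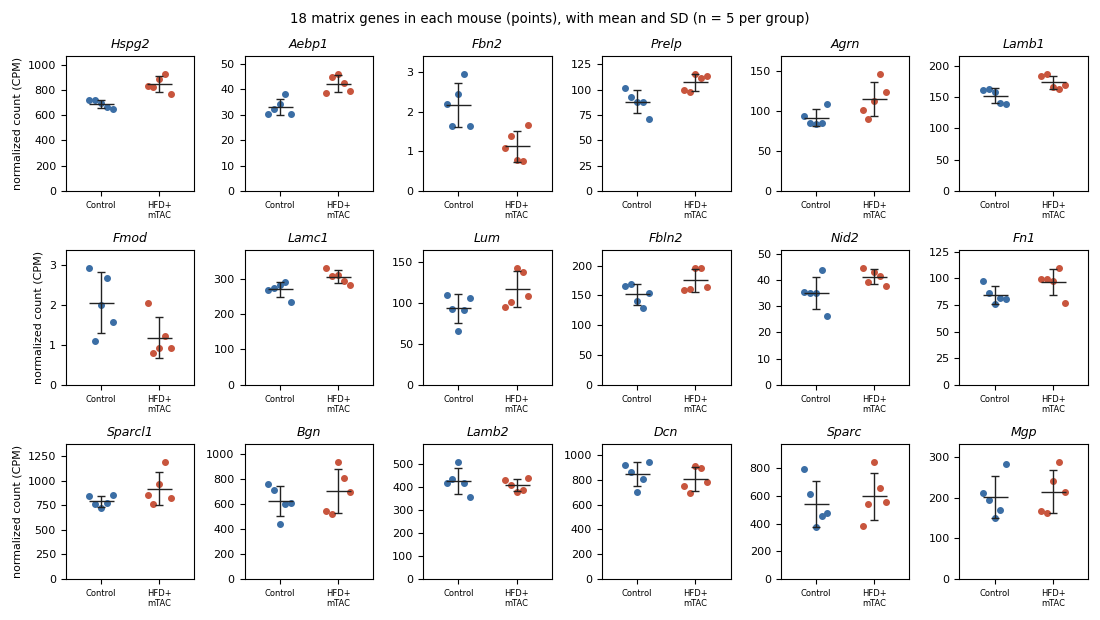
Normalized counts (CPM, axes from 0) of the 18 matrix genes given mouse by mouse, each point a mouse, with the mean and SD of 5 control (blue) and 5 HFD+mTAC mice (red), ordered by edgeR's p. Points of the 2 groups are separate in Hspg2, Aebp1 and Lamb1 and overlap in the other 15.

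Among the small leucine-rich proteoglycans, 4 of 7 genes had a fold change above 0 and none was called. Prelp, a proteoglycan that anchors basement membrane to the collagen beneath, was 102, 92.9, 87.6, 87.2 and 71.2 CPM in the control mice and 99.1, 97.4, 115, 111 and 113 CPM in the HFD+mTAC mice. Control mouse TT-583 stood above HFD+mTAC mice TT-588 and TT-589, and the other 4 control mice stood below all HFD+mTAC mice. The log2 difference of 0.28 ± 0.10 (SE, edgeR adjusted p = 0.436) was -0.02 when effective length entered as an offset, since the length of Prelp averaged 3574 bases in control and 4348 bases in HFD+mTAC mice.
Lum, lumican, which limits the width of collagen fibrils, was 110.0, 92.9, 65.8, 91.0 and 106 CPM in the control mice and 94.8, 101, 143, 138 and 108 CPM in the HFD+mTAC mice. Mice TT-590 and TT-591 were above all other mice and control mouse TT-585 was the lowest, with a log2 difference of 0.33 ± 0.15 (SE, edgeR adjusted p = 0.607).
Fmod, fibromodulin, which also binds collagen, was 2.93, 1.10, 2.01, 2.68 and 1.57 CPM in the control mice and 2.05, 0.786, 0.923, 1.23 and 0.921 CPM in the HFD+mTAC mice. These are levels of 12 to 61 estimated counts per mouse, the groups overlapped, and HFD+mTAC mouse TT-588 stood at a control level. The log2 difference of -0.80 ± 0.35 (SE, edgeR adjusted p = 0.58) was not called.

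Decorin and biglycan were among the 3 most abundant members on the TPM scale. Dcn was 917, 859.9, 704, 807 and 944 CPM in the control mice and 753, 689.5, 914, 894 and 782 CPM in the HFD+mTAC mice. Both groups covered the same range, with a log2 difference of -0.07 ± 0.11 (SE, edgeR adjusted p = 0.919).
Bgn was 761, 714, 442, 598 and 609.5 CPM in the control mice and 548, 522, 939, 808 and 699 CPM in the HFD+mTAC mice. It was lowest in control mouse TT-585 and highest in HFD+mTAC mouse TT-590, the spread within groups exceeded the difference of the means, and the log2 difference of 0.17 ± 0.18 (SE, edgeR adjusted p = 0.871) passed no test. Ogn (osteoglycin) had a log2 fold change of -0.14 and Aspn (asporin) one of 0.07, with adjusted p-values of 0.706 and 0.936 from edgeR.

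In the elastic fibre, 5 of 12 genes had a fold change above 0 and 7 below, with a median of -0.03. Fbn2, fibrillin-2, the fibrillin of developing tissue, had the largest fold change of the 53 in either direction on counts, whereas with the length offset that of Fmod was larger (-1.27 beside -0.998 for Fbn2). It was 2.21, 1.63, 2.45, 2.96 and 1.65 CPM in the control mice and 1.09, 1.39, 0.769, 0.751 and 1.66 CPM in the HFD+mTAC mice. All 10 values lay under 3 CPM, from 10 to 50 estimated counts, and HFD+mTAC mouse TT-592 stood above control mice TT-584 and TT-587. The log2 difference of -0.93 ± 0.30 (SE, edgeR adjusted p = 0.383) was not called, and with limma on log2(TPM + 1) it was -0.09.
Fbln2, fibulin-2, which links fibrillin and basement membrane proteins, was 165, 168, 141, 128 and 155 CPM in the control mice and 158, 160.3, 196, 196 and 165 CPM in the HFD+mTAC mice. Mice TT-590 and TT-591 stood above the others and the remaining 3 HFD+mTAC mice lay within the control range, with a log2 difference of 0.21 ± 0.10 (SE, edgeR adjusted p = 0.626) and a value of 0.45 with the length offset.
Eln, elastin itself, had a log2 fold change of -0.61 with a standard error of 0.45. It ranged from 9.02 to 41.1 CPM among control mice and from 6.59 to 29.9 CPM among HFD+mTAC mice. Fbn1, fibrillin-1, was at 116 and 114 CPM in control mice TT-583 and TT-584 and between 50.9 and 84.7 CPM in the other 8. For both genes the spread among control mice was wider than the difference between groups. Mfap2, a microfibril protein, had the largest positive change of the 53 on counts at 0.46 (0.59 with the length offset, where Sparc and Fn1 were higher), on 27 to 63 counts per mouse, with an adjusted p of 0.723 from edgeR. The other 7 genes (Emilin1, Mfap4, Mfap5, Fbln1, Fbln5, Efemp1 and Efemp2) lay between -0.26 and 0.23.

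**Figure D2:**
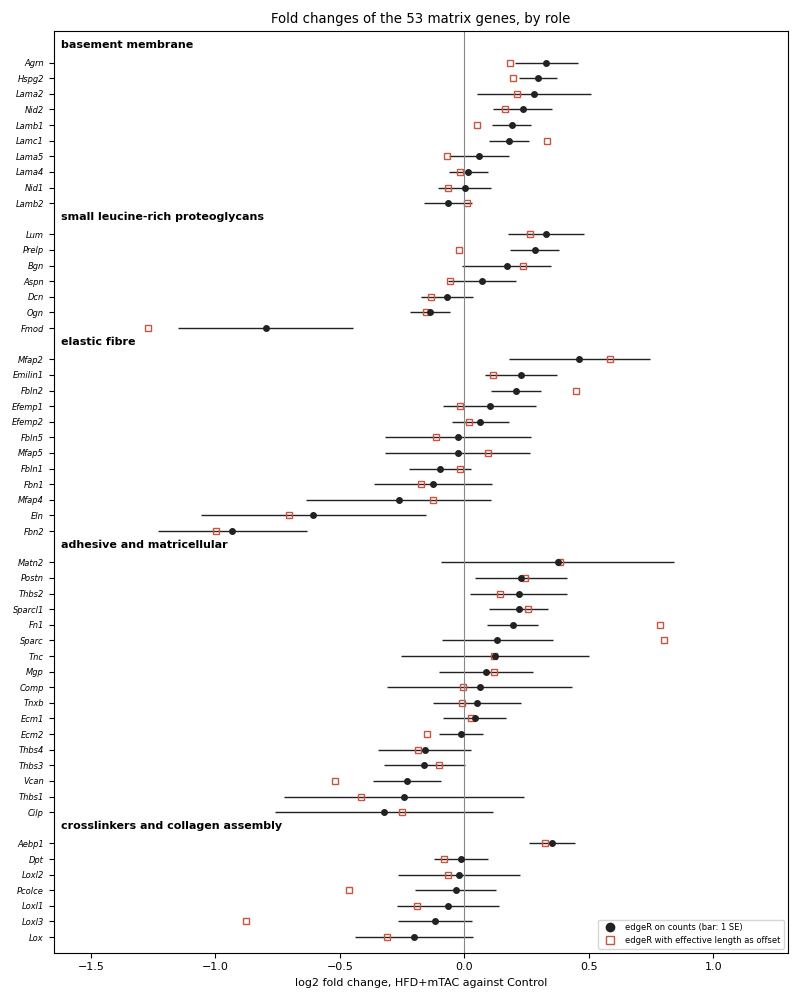
Log2 fold changes of the 53 genes between HFD+mTAC and Control (5 mice each), by role, from edgeR on counts (filled points, bars of 1 standard error) and from the same test with effective length as an offset (open squares). Most basement membrane genes lie right of 0, none of the 53 was called, and the squares lie far from the points in Fn1, Sparc, Loxl3, Pcolce and Fmod.

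Of the 17 adhesive and matricellular genes, 11 were above 0 and 6 below, none had an unadjusted p under 0.05, and the smallest adjusted p was 0.667. Fn1, fibronectin, the adhesive scaffold on which other matrix proteins are laid down, was 97.5, 86.5, 75.5, 81.4 and 80.8 CPM in the control mice and 99.1, 99.3, 97.1, 109.7 and 77.0 CPM in the HFD+mTAC mice. Mice TT-588 to TT-591 were high, but TT-592 was below 4 of the 5 control mice, and the log2 difference of 0.19 ± 0.10 (SE, edgeR adjusted p = 0.667) passed no threshold.
Sparcl1, an endothelial and mural glycoprotein, was 843, 765, 719, 770.3 and 855 CPM in the control mice and 851, 762, 965, 1191 and 827 CPM in the HFD+mTAC mice. Mice TT-591 and TT-590 lay above the rest and the other 3 HFD+mTAC mice within the control range, with a log2 difference of 0.22 ± 0.12 (SE, edgeR adjusted p = 0.676).
Sparc, which binds collagen on its way out of the cell, was 797, 614, 374, 457 and 479 CPM in the control mice and 385, 539, 847, 659 and 555 CPM in the HFD+mTAC mice. The groups overlapped over nearly their whole ranges, with a log2 difference of 0.13 ± 0.22 (SE, edgeR adjusted p = 0.923).
Mgp, matrix Gla protein, an inhibitor of calcification, was 212, 196, 149.5, 169.6 and 284 CPM in the control mice and 167, 163, 241, 288 and 215 CPM in the HFD+mTAC mice. Control mouse TT-587 and HFD+mTAC mouse TT-591 were alike at the top, with a log2 difference of 0.09 ± 0.19 (SE, edgeR adjusted p = 0.943).

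None of the other adhesive and matricellular genes was called. Postn, periostin, a product of activated fibroblasts, had a log2 fold change of 0.23 and Tnc, tenascin-C, one of 0.12 at 13 to 67 counts per mouse. Their adjusted p-values were 0.807 and 0.962 from edgeR. Cilp, of which the product accumulates in fibrotic heart, was highest in control mice TT-583 and TT-584 at 34.5 and 22.7 CPM and lay between 6.13 and 17.3 CPM in the other 8 mice, with a log2 fold change of -0.32 and a standard error of 0.44. Thbs1, thrombospondin-1, which can activate latent TGFβ, had the widest spread of the 53, from 36.7 CPM in mouse TT-591 to 320.2 CPM in mouse TT-592, both of the HFD+mTAC group, with a log2 fold change of -0.24 and a standard error of 0.48. Thbs2, Thbs3 and Thbs4 had log2 fold changes of 0.22, -0.16 and -0.16. The remaining genes (Vcan, Tnxb, Matn2, Ecm1, Ecm2 and Comp) lay between -0.23 and 0.38.

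Aebp1 had the smallest p of the crosslinking and assembly genes. It encodes the aortic carboxypeptidase-like protein (chr11:5861947-5872088), which binds fibrillar collagen and promotes its assembly. It was 30.2, 32.5, 34.3, 38.1 and 30.4 CPM in the control mice and 38.6, 44.9, 46.1, 42.4 and 39.2 CPM in the HFD+mTAC mice. Control mouse TT-586 and HFD+mTAC mouse TT-588 came within 1 CPM of each other, and no values crossed. Its group levels were 33.1 ± 3.25 CPM (SD, n = 5) in control and 42.2 ± 3.33 CPM (SD, n = 5) in HFD+mTAC mice, which gave a log2 difference of 0.35 ± 0.09 (SE, edgeR adjusted p = 0.262), and the change was 0.32 to 0.41 over 19 alternatives. The groups overlapped with upper-quartile scaling, the length offset or TPM. The adjusted p was 0.062 from DESeq2, 0.665 from edgeR with the offset and 0.666 from limma on log2(TPM + 1).
The 4 lysyl oxidases all had values below 0: Lox -0.20, Loxl1 -0.07, Loxl2 -0.02 and Loxl3 -0.12, each as a log2 fold change on counts (with limma on log2(TPM + 1) Loxl2 was at 0.01), with adjusted p-values of 0.892 to 0.993 from edgeR. Pcolce, the enhancer of procollagen cleavage, had -0.03 and Dpt, dermatopontin, -0.01. Aebp1 was thus the only gene of the 7 above 0 on counts and none of the 7 was called. The value of Loxl3 was -0.88 with the length offset (unadjusted p = 0.0143, adjusted p = 0.62 from edgeR) and -0.54 with limma on log2(TPM + 1) (adjusted p = 0.674).

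Many members were high or low in the same mice. Deviations of log2(CPM + 0.5) from each gene's mean had a median over the 53 of 0.20 in mouse TT-591, 0.15 in TT-590 and 0.14 in TT-583, and of -0.15 in TT-589 and -0.15 in TT-585. Over all genes tested the same medians lay between -0.01 and 0.02. Mice TT-590 and TT-591 each held the highest level of 12 members (22.6%, beside 9.84% and 14.7% of all genes). Control mouse TT-583 held the highest level of 9 (17.0%, beside 6.8%). Mice TT-585 and TT-589 each held the lowest of 14 (26.4%, beside 8.24% and 9.28%). Each group thus held mice at both ends of the order. Members took 0.633 to 0.810% of the counts on genes tested in control and 0.668 to 0.883% in HFD+mTAC mice.
The median fold change over the members was -0.03 without HFD+mTAC mouse TT-590 and -0.01 without TT-591, against 0.05 with all mice. Fibroblast markers varied too, from 449 to 897 CPM in control and 509.9 to 828 CPM in HFD+mTAC mice in sum. The sum was highest in mice TT-583, TT-590 and TT-584 at 897, 828 and 810.5 CPM. It was lowest in TT-587, TT-585 and TT-589 at 449, 505 and 509.9 CPM. It includes collagens, matrix genes themselves: Col1a1, Col1a2 and Col3a1 ran from 62.7 to 165, 127 to 220 and 114 to 363 CPM. Pdgfra, Tcf21, Scara5 and Islr ran from 53.4 to 67.7, 5.78 to 9.28, 34.2 to 45.5 and 38.3 to 66.1 CPM. Endothelial markers varied as well, and in sum were highest in mice TT-591, TT-583 and TT-590 at 2221, 1959 and 1911 CPM. They were lowest in TT-586, TT-589 and TT-585 at 1544, 1570 and 1585 CPM. None of the 7 fibroblast or 6 endothelial markers had an unadjusted p under 0.05 between groups (edgeR). The part of either list in the members' spread was not tested. Thbs2 and Efemp1 went against the order of the fibroblast marker sum. Their levels in mice TT-585, TT-587 and TT-589 all lay above those in TT-583, TT-584 and TT-590. Lama2 did so in TT-585 and TT-589 but was lowest of all mice in TT-587, at 43.8 CPM.

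**Figure D3:**
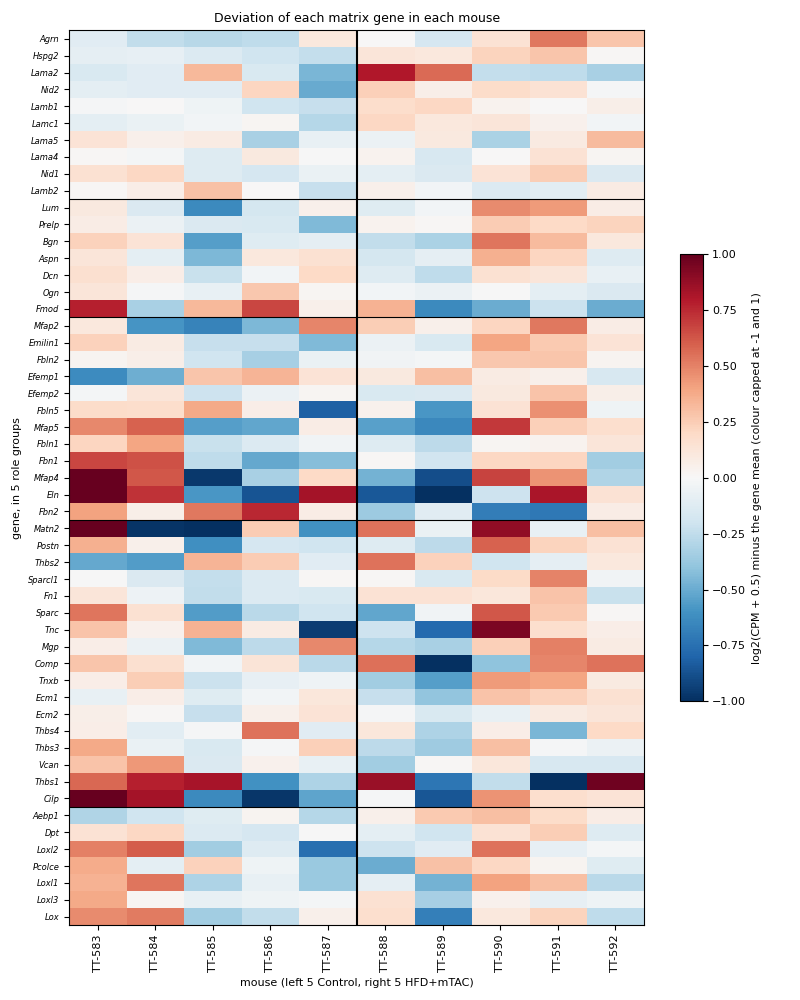
Deviation of log2(CPM + 0.5) from the gene's mean over 10 mice, for 53 genes (rows, in role groups) and 10 mice (columns, a line between the groups), with colour capped at -1 and 1. Columns TT-585 and TT-589 are mostly blue and TT-583, TT-590 and TT-591 mostly red, while the basement membrane rows are redder in the right 5 columns.

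The deposited effective lengths were read beside the counts. They average, weighted by abundance, salmon's effective lengths of a gene's transcripts, made with corrections for sequence, GC and position bias. They can move with those corrections as well as with the mix of transcripts, so they are no direct measure of that mix. None of the 53 differed between the groups by limma at an adjusted p under 0.05, as 0 of 13305 genes did. At an unadjusted p under 0.05 there were 4 members (Loxl3, Lox, Ecm2 and Agrn), or 7.55%, beside 7.00% of all genes. Loxl3 was 5506, 2416, 3710.0, 1915 and 4525 bases in control and 3850.0, 6768, 6282, 6891 and 5696 bases in HFD+mTAC mice, a log2 difference of 0.80 (standard error 0.28, adjusted p = 0.592 from limma). The groups overlapped.
Lengths varied between mice, and the longest was over 2 times the shortest in 13 of 53 members (24.5%) and in 27.0% of all genes. Fn1 was 3375, 2591, 8885, 2833 and 2325 bases in control and 2371, 2139, 2329, 2134 and 1784 bases in HFD+mTAC mice, with mouse TT-585 apart from all others. Sparc ran from 991 to 6019 bases and Thbs3 from 504 to 7682.

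These lengths entered the TPM values. Sparc, with a 2.27-fold range over 10 mice in CPM, had a 10.7-fold range in TPM, and its log2 fold change was 0.80 with length as an offset in place of 0.13. Fn1 in TPM was 30.0, 32.6, 9.01, 28.8 and 34.7 in control and 46.8, 49.6, 41.6, 54.8 and 45.7 in HFD+mTAC mice. On that scale its groups did not overlap, in contrast to CPM, with a log2 fold change of 0.79 (adjusted p = 0.636 from edgeR with the offset). Hspg2 in TPM was 127, 128, 115, 110.4 and 135 in control and 116, 120.2, 159, 171 and 152 in HFD+mTAC mice. There mice TT-588 and TT-589, with the longest Hspg2 lengths, lay within the control range. With the offset 24 of 53 members were above 0 (45.3%, beside 50.5% of all genes), the median was -0.02, and 7 of 10 basement membrane genes were above 0. At an unadjusted p under 0.05 there were then 6 members (Fbn2, Fmod, Loxl3, Fbln2, Fn1 and Aebp1), beside 7.46% of all genes. The range of TPM over the mice was wider than that of CPM in 42 of 53 members.

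**Figure D4:**
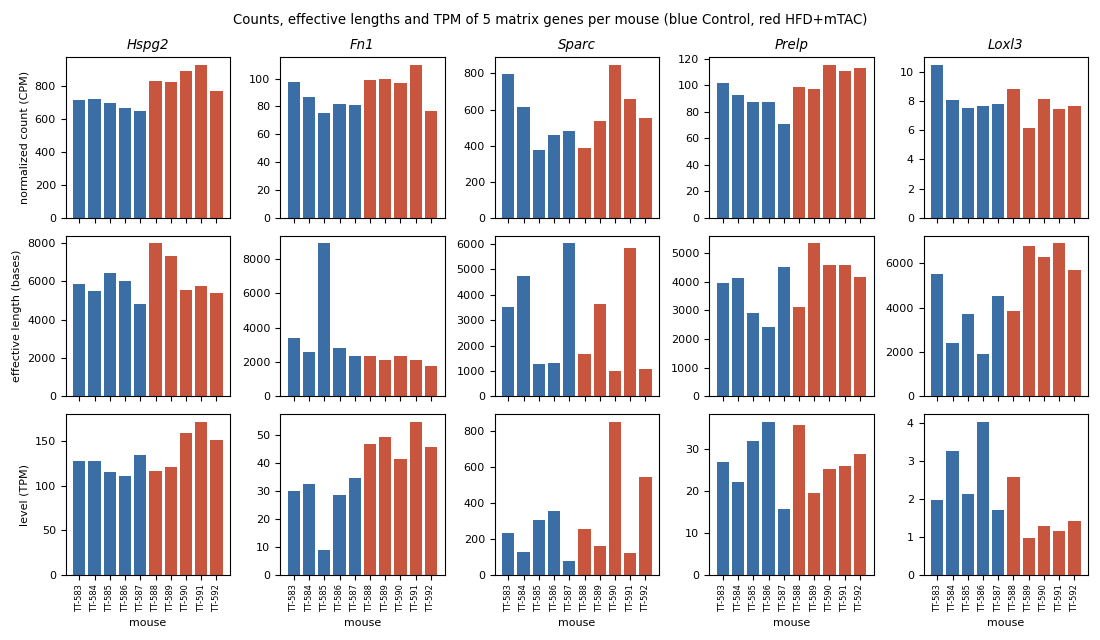
Normalized counts (top, CPM), effective lengths (middle, bases) and TPM (bottom) of Hspg2, Fn1, Sparc, Prelp and Loxl3 in each mouse, bars from 0, blue for Control and red for HFD+mTAC. Sparc spans 2.27-fold in counts and 10.7-fold in TPM, and the length of Fn1 is 8885 bases in mouse TT-585.

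Levels between genes were compared per length. On the TPM scale (renormalized over the genes tested, mean of 10 mice) Mgp led at 860.1, followed by Dcn at 701, Bgn at 425, Sparcl1 at 414, Lamb2 at 311 and Sparc at 303 TPM. Fbn2 was lowest at 0.104 TPM. In CPM per kilobase of the longest annotated transcript the same 6 genes took ranks 1 to 5 and 7, with Sparcl1 first at 310.0 and Mgp next at 292. The ranges over the 10 mice overlapped in TPM between every pair of neighbours among these 6. Some genes moved far between the 2 scales: Lama5 stood at rank 8 in TPM and 23 in CPM per kilobase, Mfap5 at 13 and 30, and Dpt at 20 and 8.

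**Figure D5:**
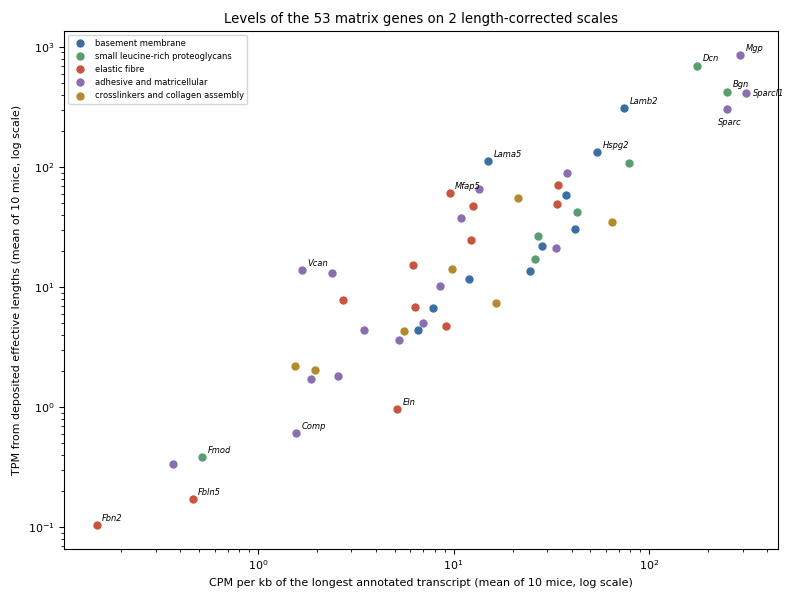
Mean level of each of the 53 genes over 10 mice in TPM from the deposited effective lengths (vertical) against CPM per kilobase of the longest annotated transcript (horizontal), both log axes, coloured by role. Mgp, Dcn, Bgn, Sparcl1 and Sparc lie at the top on both, Fbn2 at the bottom, and Eln lies below and Lama5 above the main band.

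Of 27 matrix receptors, 0 were called by edgeR, beside 0.0601% of all genes, and 2 (7.41%) had an unadjusted p under 0.05, beside 8.26% of all genes. Sdc3, a syndecan, had a log2 fold change of 0.24 (adjusted p = 0.597 from edgeR) and Sdc4, another, of -0.48 (adjusted p = 0.488 from edgeR), while Gpc6, a glypican, had 0.34 (adjusted p = 0.71 from edgeR) and Itgb3, an integrin beta chain, -0.56 (adjusted p = 0.623 from edgeR). With the length offset Sdc3 was 1.12, Gpc6 0.86 and Sdc4 -0.21. The receptors as a list were centred near 0, with a median of 0.03.
Of 27 tested genes for matrix biosynthesis and processing (29 listed), 0 were called, 3 (11.1%, beside 8.26% of all genes) had an unadjusted p under 0.05 and the median was 0.03. Fkbp10, a chaperone of collagen, was 32.5 ± 3.88 CPM (SD, n = 5) in control and 48.6 ± 6.60 CPM (SD, n = 5) in HFD+mTAC mice, without overlap, a log2 difference of 0.58 ± 0.11 (SE, edgeR adjusted p = 0.142), and 0.95 with the length offset (adjusted p = 0.574 from edgeR). Pcolce2 had a log2 fold change of 0.41 (adjusted p = 0.294 from edgeR) and 0.18 with the offset, and the hyaluronan synthases Has1 and Has2 had -2.13 (adjusted p = 0.487 from edgeR) and -0.76 (adjusted p = 0.714 from edgeR), at under 2 CPM.
Of 35 tested other matrix glycoproteins and proteoglycans (46 listed), 1 was called, Papln, beside 0.0601% of all genes. Of the 35, 4 (11.4%, beside 8.26% of all genes) had an unadjusted p under 0.05 and the median was 0.04. Papln, which encodes papilin, was 12.2 ± 2.20 CPM (SD, n = 5) in control and 24.6 ± 3.71 CPM (SD, n = 5) in HFD+mTAC mice, which gave a log2 difference of 1.00 ± 0.15 (SE, edgeR adjusted p = 0.029), and with effective length as an offset the log2 fold change was 0.77 (adjusted p = 0.583 from edgeR). Ltbp4, which holds latent TGFβ in the matrix, had a log2 fold change of 0.43 (adjusted p = 0.248 from edgeR) without overlap. Genes higher without overlap were 2 of these 35 (5.71%) and 1 of the 27 for biosynthesis and processing (3.7%), beside 1.07% of all genes. Spon2 and Vwa1 had -2.08 (adjusted p = 0.294 from edgeR) and -0.39 (adjusted p = 0.627 from edgeR).

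Libraries held between 34.2 and 53.7 M estimated counts in all and between 12.7 and 21.1 M on the genes tested, and 43.8 to 52.7% came from the mitochondrial genome. The sample labels give single-end reads, 29.8 M on average, and the study's methods paired-end reads. All 10 totals exceed that average, so a mean of 29.8 M reads cannot have given these counts. Whether the reads were single or paired could not be settled from the tables. Ventricular tissue was checked by its markers: Myl2 averaged 18268 and 15734 CPM in the 2 groups, whereas the 4 atrial markers (Myl4, Myl7, Sln and Bmp10) summed to at most 5.35 CPM and the 5 mesothelial markers to at most 0.491 CPM. Of the atrial genes, Bmp10, at 1 to 13 counts per mouse, had a log2 fold change of 1.36 (adjusted p = 0.46 from edgeR). Endothelial markers summed to 1544 to 1959 CPM in control and 1569.8 to 2221 CPM in HFD+mTAC mice. Mural markers summed to 1609.7 to 2303 CPM in control and 1569 to 2629 CPM in HFD+mTAC mice, with 0 of the tested genes of either list called. Most of the mural sum was Rgs5, at 1470 and 1504 CPM in the group means (log2 fold change 0.03). The other 4 tested mural markers were lower in HFD+mTAC mice: Acta2 -0.36, Tagln -0.41, Myh11 -0.30 and Cnn1 -0.36 (adjusted p = 0.794 to 0.897 from edgeR). The activated fibroblast markers were split in sign. Fap had a log2 fold change of 0.49 (adjusted p = 0.467 from edgeR) and Cthrc1, at 0 to 11 counts per mouse, 0.66 (adjusted p = 0.887 from edgeR). Meox1 had -0.20 (adjusted p = 0.897 from edgeR) and Ltbp2 -0.27 (adjusted p = 0.873 from edgeR). Unadjusted p-values from edgeR were 0.0174 for Fap and 0.369 to 0.429 for the other 3. Macrophage and Schwann cell lists of 5 and 3 tested genes, and lymphocyte, valve and tendon, and atrial lists, held 0 called genes, and the adipocyte list summed to at most 2.44 CPM. In Fbn2, Fmod, Tnc, Fbln5, Comp and Mfap2, at under 100 counts in every mouse, small changes were not detectable at this depth.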

How the data were processed

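Left ventricular RNA of 5 control and 5 HFD+mTAC mice was analyzed, grouped by the sample labels. According to the study's methods, stranded polyA libraries were sequenced, trimmed and quantified with salmon (1.6.0 per the submitters' processing notes) on GENCODE M25 transcripts of GRCm38.p6, with corrections for sequence, GC and position bias, and summed with tximport. The processing notes name the human build hg38, although the symbols are those of mouse. The authors deposited estimated counts (expected counts per gene), not normalized, of which 20.07% were not whole. The authors also deposited TPM, scaled within each mouse, and, per the file headers, other values, the average effective lengths in bases. The deposited TPM equal counts over length within a relative difference of 0.000507.

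Symbols were matched to GENCODE M21 (27812 of 29564) or RefSeq. Genes were tested when protein-coding, not mitochondrial and with at least 1 count in 9 mice. After rounding, counts went into edgeR 4.0.16 under R 4.3.3 (TMM, quasi-likelihood, Benjamini-Hochberg adjusted p under 0.05, no covariate). CPM are on TMM library sizes, and TPM were renormalized over the genes tested. Log2 effective lengths, centred per mouse, were tested with limma 3.58.1. DESeq2 1.42.0 was an alternative. Genes named mouse by mouse are the 12 members of smallest p, those without overlap and the 6 of highest TPM. From each pathway list the 2 genes of smallest p per direction are named. The members and lists were chosen with earlier results of these data known. Other members named for their spread were chosen after their values were seen. Libraries of a group differed by a chi-square per degree of freedom of at least 12.9. The labels give each sample a number of its own and no batch, and p-values measure the spread between these samples. The tests were checked on simulated data.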

Additional observations from a re-analysis of the deposited data

How the results depend on the processing

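The number of members called was 0 under 18 of 19 alternatives and 1, Hspg2, with DESeq2. At an unadjusted p under 0.05 there were 6 to 11 members when any mouse was left out, beside 843 to 1209 of all genes. The number of members without overlap was 3 to 5 when any mouse was left out (5 without control mouse TT-586 or HFD+mTAC mouse TT-592), beside 2.54 to 3.75% of all genes against 1.96% with all mice. It was 2 with DESeq2's size factors (Hspg2 and Aebp1), upper-quartile scaling (Hspg2 and Lamb1) or the length offset (Fn1 and Fbn2), and 1, Fn1, on renormalized TPM. The median log2 fold change of the members was -0.02 with the length offset and -0.03 to 0.10 when any mouse was left out, below 0 without HFD+mTAC mouse TT-590 or TT-591, against 0.05. The number of members with a called effective length was 0 under all 12 alternatives.

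Of the 18 genes given mouse by mouse, 14 kept their direction under 19 alternatives. The log2 fold change of Prelp was -0.0205 with the length offset. Lamb2 was 0.0087 with the offset, 0.0535 and 0.0537 with limma on log2(TPM + 1) and log2(TPM + 0.1), and -0.1257 to 0.0055 when any mouse was left out. Mgp was -0.0427 to 0.2398 and Sparc -0.0275 to 0.3111 when any mouse was left out. The causes were not tested. No paired analysis was possible because mouse numbers are not shared between groups. Low counts limit what can be said of Fbn2 and Fmod, and unstable effective lengths what can be said of Sparc, Fn1 and Loxl3.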

Other observations

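Effective lengths did not follow the annotation in many members. The mean length exceeded the longest annotated GENCODE M21 transcript in 26 of 53 members and was over 2 times as long in 5 of them, and it was under 0.5 times as long in 15. Eln had a mean length of 21761 bases in control mice beside a longest transcript of 3853 bases, and Lama5 had 1525 beside 11388 bases. Mgp was at 251 bases in every mouse. The cause was not tested.

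Thbs3 had a length of 7682 bases in control mouse TT-585 and 2585 in HFD+mTAC mouse TT-588, against at most 1049 in the other 8, and its TPM was 1.18 in mouse TT-585 while its CPM was 8.57.

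Matn2, which encodes a matrilin of the pericellular matrix, spanned a 7.95-fold range in CPM, with 14.0 CPM in control mouse TT-583 and 1.76 CPM in control mouse TT-585. The pericyte markers Cspg4 and Kcnj8 were listed at 0 in 2 and 5 mice and reached 554 and 181 counts in others.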
